A study of Caenorhabditis elegans with 9 samples.

Results

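The protist-type lysozyme genes lys-1 to lys-8 and lys-10 of *Caenorhabditis elegans* were followed across 3 ages of the wild type strain N2. These 9 genes, among 17118 with a probe set of their own on the array, were taken by name from the array's annotation. No value entered that rule, but earlier results of these data were known when it was set. Each has 1 probe set of its own, and 1 further probe set is shared by lys-5 and lys-6, which makes 10. RNA came from whole Bristol N2 animals taken as L4 larvae, Day 6 adults and Day 15 adults, with 3 arrays per age as biological replicates. All animals were fed *E. coli* OP50 at 20°C. The adults had been moved as L4 larvae to plates with 0.05 mg/mL FUDR, which keeps their eggs from hatching. The L4 larvae were taken before any exposure, so that age and FUDR cannot be told apart in a comparison with L4 larvae. Per the methods, adults stayed on these plates until they were used. Age and time on FUDR thus cannot be told apart between Day 6 and Day 15. Whole animals were extracted, so fewer cells of a type and less RNA per cell cannot be told apart either.

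Lysozymes cut the sugar backbone of peptidoglycan, the mesh that gives bacterial cell walls their strength. The protist-type enzymes are related to lysozymes of amoebae, which also feed on bacteria. *C. elegans* lives on bacteria, and lysozymes made in its intestine are known both for breaking down food bacteria and for defense against pathogens. Several members are known targets of signaling pathways of innate immunity. The gene lys-2 depends on the PMK-1 p38 MAP kinase pathway, lys-7 is activated by the FOXO transcription factor DAF-16, and lys-8 depends on DBL-1, a TGF-beta ligand.

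Values are log2 expression values, so that a difference of 1 is 2-fold. Values under 4 are taken here as near the background of the array. Tests covered the 11758 genes that averaged 4 or more at 1 age or more, and with them 8 of the 9 lysozyme genes. The remaining gene, lys-10, stayed under 4 at every age mean. A gene is said to rise or fall where limma gave an adjusted p under 0.05, over all genes tested, together with a difference of 2-fold or more. Medians of the 9 arrays lay between 5.42 and 5.73. Arrays of the same age correlated at 0.954 to 0.995 over all probe sets, and arrays of different ages at 0.8 to 0.935. The L4 arrays differed most among themselves. The mean log2 value of 10 markers of germline and oocytes was 8.36, 10.74 and 9.42 in L4 replicates 1, 2 and 3, and that of 7 pharynx muscle markers was 8.13, 6.13 and 7.32. L4 replicate 2 was the farthest from its age mean, and leaving it out changed no call of a lysozyme gene.

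Between Day 6 and Day 15, most lysozyme genes were downregulated and lys-3 was upregulated. Of the 8 genes tested, 6 fell (lys-1, lys-2, lys-4, lys-5, lys-6 and lys-8), 1 rose (lys-3) and 1 did not pass the minimum of 2-fold (lys-7). Over all genes tested, 17% fell and 16.4% rose by the same rule. Falls of 10-fold or more were found for 5 lysozyme genes, against 2.87% of all genes tested. The median change of the 8 genes was -3.95 on the log2 scale (-3.89 with values under 4 set to 4), while that of all genes tested was 0.00. All 3 Day 15 arrays lay below all 3 Day 6 arrays for 7 of the 8 genes, as they did for 33.5% of all genes tested, and above them for lys-3, as for 34.5%. The array values of every member are drawn in the plot of each array by age.

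**Figure D1:**
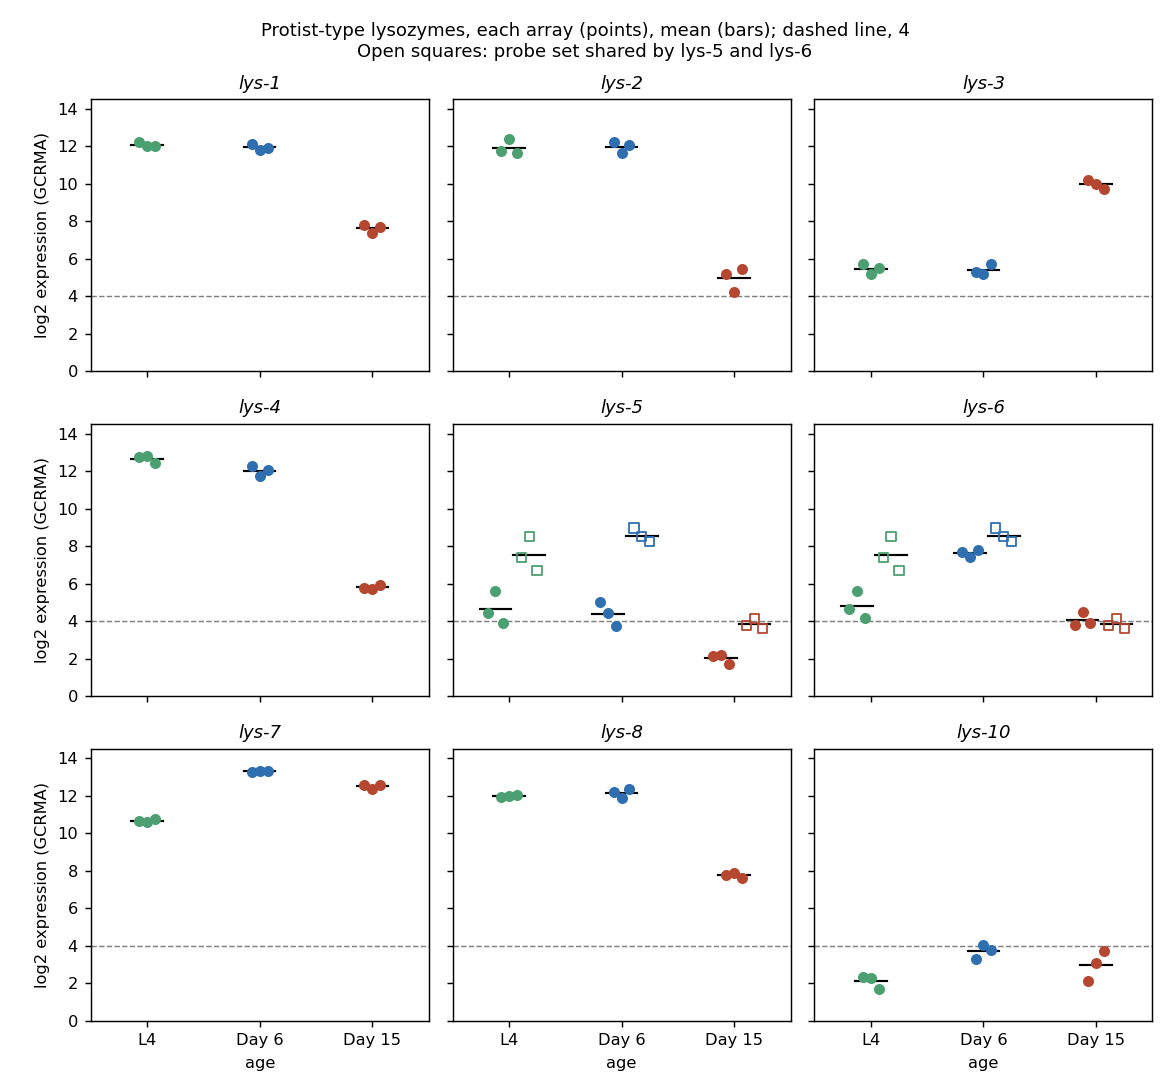
Log2 expression value (vertical axis) of each lysozyme gene on each array at L4, Day 6 and Day 15 (horizontal axis), with 3 points per age, a bar for their mean and a dashed line at 4. Values of lys-1, lys-2, lys-4 and lys-8 are far lower at Day 15 than at both younger ages, lys-3 is far higher there, lys-6 and lys-7 are highest at Day 6, and the open squares give the probe set shared by lys-5 and lys-6.

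The genes lys-1, lys-2, lys-4 and lys-8 were near the same level in L4 larvae and at Day 6 and were far lower at Day 15. The gene lys-1 (Y22F5A.4), whose overexpression is known to raise resistance to *Serratia marcescens*, had log2 values of 12.21, 12.04 and 12.02 in L4 larvae, 12.13, 11.82 and 11.90 at Day 6, and 7.78, 7.37 and 7.72 at Day 15. Its L4 and Day 6 arrays overlapped, and its Day 15 arrays lay below all others. It fell by 4.33 between Day 6 and Day 15 (adjusted p = 5.9e-07, standard error 0.18, 3 arrays at each age), a 20.1-fold reduction. The change between L4 and Day 6 was -0.14 with a 95% interval of -0.54 to 0.26, which lies within 2-fold in either direction.

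The PMK-1 target lys-2 (Y22F5A.5) had the largest fall among the lysozyme genes. Its log2 values were 11.73, 12.38 and 11.62 in L4 larvae, 12.23, 11.65 and 12.07 at Day 6, and 5.20, 4.25 and 5.48 at Day 15. The Day 15 arrays spread more than those of the younger ages (SD 0.64, against 0.30 at Day 6), with replicate 2 the lowest, and still left a gap of 6.17 to the nearest Day 6 array. The fall between Day 6 and Day 15 was 7.01 (standard error 0.35, adjusted p = 1.4e-06), or 129-fold, and ranked 18 among the falls of all 11758 genes. Day 6 and L4 arrays overlapped, with a change of 0.07 (95% interval -0.72 to 0.87).

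Next in size was lys-4 (F58B3.1), with log2 values of 12.73, 12.81 and 12.46 in L4 larvae, 12.28, 11.72 and 12.06 at Day 6, and 5.77, 5.69 and 5.92 at Day 15. The change between Day 6 and Day 15 was -6.23 (standard error 0.19, adjusted p = 1.4e-07), or 74.9-fold lower, with rank 40 among all falls. It is the only member among lys-1, lys-2, lys-4 and lys-8 whose Day 6 arrays all lay below the L4 arrays, by a gap of 0.18. That earlier change was -0.65 (95% interval -1.09 to -0.20, adjusted p = 0.0162) and did not reach 2-fold.

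The DBL-1 target lys-8 (C17G10.5) had log2 values of 11.92, 12.01 and 12.05 in L4 larvae, 12.19, 11.91 and 12.36 at Day 6, and 7.79, 7.88 and 7.64 at Day 15. It fell by 4.38 between Day 6 and Day 15 (standard error 0.17, adjusted p = 4.4e-07), or 20.9-fold. The fall had nearly the size of that of lys-1, and the 95% intervals of both changes, -4.77 to -3.99 for lys-8 and -4.73 to -3.92 for lys-1, covered almost the same range. Day 6 and L4 arrays of lys-8 overlapped (change 0.16, 95% interval -0.23 to 0.55).

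The gene lys-3 (Y22F5A.6) moved the opposite way. Its log2 values were 5.70, 5.17 and 5.53 in L4 larvae, 5.32, 5.20 and 5.72 at Day 6, and 10.19, 10 and 9.75 at Day 15. The L4 and Day 6 arrays overlapped, and every Day 15 array lay at least 4.03 above the highest Day 6 array. It rose by 4.57 between Day 6 and Day 15 (standard error 0.22, adjusted p = 1.2e-06), or 23.7-fold, with rank 109 among the rises of all genes tested. Its change between L4 and Day 6 was -0.05 (95% interval -0.55 to 0.45). The ID of the only probe set of lys-3 marks a match to several transcripts, so signal of relatives cannot be told apart there. Markers of sperm were also higher at Day 15, with 4 of 4 tested markers called higher than at Day 6. The summed linear level of the 6 sperm markers with a probe set was 7430 to 8550 at Day 15 and 539 to 1090 at Day 6. In L4 larvae that sum was 5230 to 9240. The part of the sperm signal in the rise of lys-3 was not tested.

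The genes lys-6 and lys-7 rose between L4 and Day 6 and were the 2 lysozyme genes of 8 called in that comparison. By limma and by the methods' t-test 0 were called lower, and 3 of the 8 had an unadjusted limma p under 0.05, among them lys-4 with the lower level at Day 6. Over all genes tested, 29.3% rose and 24.6% fell between L4 and Day 6. The gene lys-6 (F58B3.3) had log2 values of 4.63, 5.58 and 4.15 in L4 larvae, 7.67, 7.40 and 7.78 at Day 6, and 3.80, 4.49 and 3.87 at Day 15. By its own probe set lys-6 was thus high at Day 6 alone, with L4 and Day 15 arrays that overlapped. The probe set shared with lys-5, described below, did not show this. There the L4 and Day 6 arrays overlapped, and Day 15 was 3.71 below L4 larvae (limma adjusted p = 5.8e-05). By the own probe set of lys-6, the rise between L4 and Day 6 was 2.83 (standard error 0.36, adjusted p = 1.4e-04), or 7.11-fold, and 3.23 without L4 replicate 2. The fall between Day 6 and Day 15 was 3.56 (standard error 0.36, adjusted p = 5.3e-05), or 11.8-fold, and 3.45 with values under 4 set to 4. Day 15 and L4 differed by -0.73 (95% interval -1.54 to 0.08, adjusted p = 0.0925), a difference that depended on the L4 arrays used. It was -0.34 without L4 replicate 2 (adjusted p = 0.262), and -1.05 without L4 replicate 3 (adjusted p = 0.0249), where it passed the test.

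The DAF-16 target lys-7 (C02A12.4) was highest at Day 6 and lowest in L4 larvae. Its log2 values were 10.65, 10.61 and 10.77 in L4 larvae, 13.30, 13.31 and 13.32 at Day 6, and 12.58, 12.36 and 12.60 at Day 15. The ages did not overlap, and their order was L4, Day 15, Day 6 from low to high. The rise between L4 and Day 6 was 2.63 (standard error 0.15, adjusted p = 1.3e-06), or 6.20-fold. The change between Day 6 and Day 15 was -0.80 (standard error 0.15, 95% interval -1.14 to -0.46, adjusted p = 0.00222), so that the Day 15 level was 57.6% of that at Day 6. The adjusted p was under the threshold, but the change did not reach 2-fold. At Day 15 lys-7 still stood 1.84 above L4 larvae (standard error 0.15, adjusted p = 7.4e-06), or 3.57-fold. Germline and oocyte markers were also higher at Day 6 than in L4 larvae, with 7 of 10 called higher and 0 lower by limma, and 1 of 10 called by the methods' t-test after adjustment. Their summed linear level was 35900 to 38900 at Day 6 and 7230 to 22500 in L4 larvae. The part of this difference in the rises of lys-6 and lys-7 was not tested.

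The own probe set of lys-5 (F58B3.2) was close to the background at every age. It had log2 values of 4.44, 5.58 and 3.92 in L4 larvae, 5.01, 4.42 and 3.71 at Day 6, and 2.15, 2.17 and 1.72 at Day 15. All Day 15 arrays lay under 4, and so did 1 array of each younger age. The fall between Day 6 and Day 15 was 2.37 (standard error 0.45, adjusted p = 0.00241). With values under 4 set to 4 the change was -0.48 (adjusted p = 0.388), so the call of this probe set rests on differences below the level taken here as background.

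The probe set that lys-5 shares with lys-6 had log2 values of 7.39, 8.53 and 6.71 in L4 larvae, 8.96, 8.50 and 8.23 at Day 6, and 3.75, 4.13 and 3.61 at Day 15. In a fit across 15452 probe sets, of which 16.5% fell, it was 4.73 lower at Day 15 than at Day 6 (standard error 0.42, adjusted p = 2.7e-05). With values under 4 set to 4 the difference was 22.9-fold. Its L4 and Day 6 arrays overlapped (change 1.02, 95% interval 0.06 to 1.98, adjusted p = 0.058), whereas those of the probe set of lys-6 alone did not. The shared probe set cannot assign its signal to either gene. In that fit, 7 of the 9 lysozyme probe sets tested fell.

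The gene lys-10 (F17E9.11) had log2 values of 2.36, 2.27 and 1.67 in L4 larvae, 3.32, 4.05 and 3.77 at Day 6, and 2.14, 3.07 and 3.73 at Day 15. The Day 6 arrays lay above the L4 arrays, and the Day 15 arrays overlapped with both. Only 1 of its 9 values reached 4, and no change is given for it as a result.

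**Figure D2:**
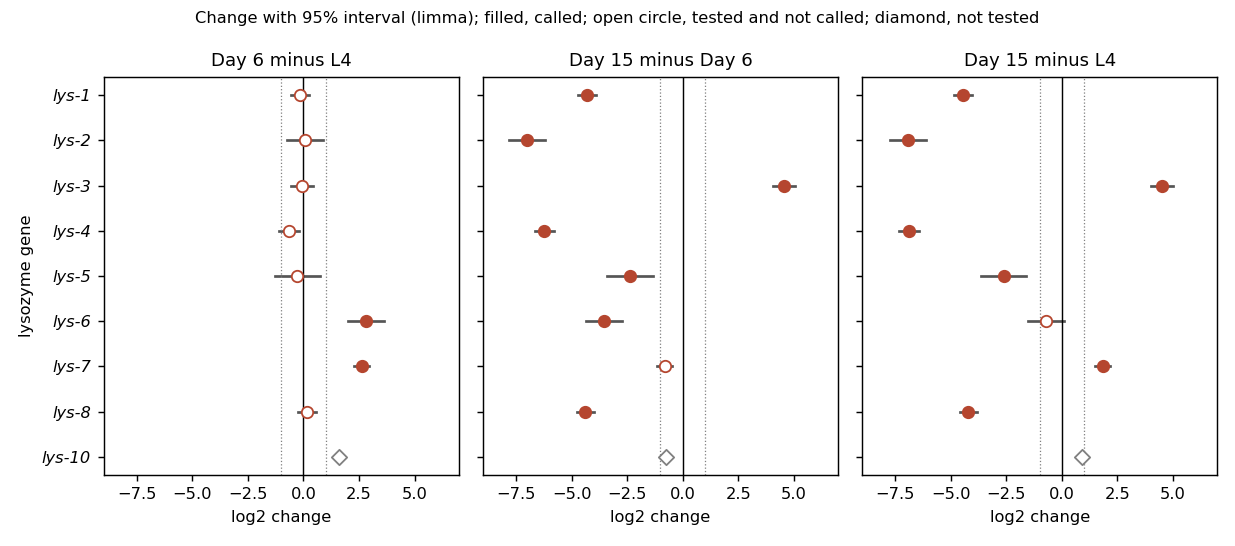
Log2 change (horizontal axis) of each lysozyme gene (vertical axis) in 3 comparisons of ages, with its 95% interval from limma and dotted lines at 2-fold. Filled circles mark genes called, open circles genes tested and not called, and the diamond lys-10, which was not tested; only lys-6 and lys-7 are filled for Day 6 minus L4, and lys-3 is the only gene called higher for Day 15 minus Day 6.

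Between L4 and Day 15, which spans both steps, 5 of 8 genes fell (lys-1, lys-2, lys-4, lys-5 and lys-8), 2 rose (lys-3 and lys-7) and lys-6 did not pass the test. By the same rule 26.7% of all genes tested fell and 32.3% rose. This comparison shares its arrays with the other ones and is no separate evidence of their directions. The gene lys-4 was 6.87 lower at Day 15 than in L4 larvae (standard error 0.19, adjusted p = 1.8e-08), or 117-fold, and lys-2 was 122-fold lower. The gene lys-3 was 22.8-fold higher (change 4.51, standard error 0.22). For lys-5 the change was -2.63 (adjusted p = 7.3e-04), -2.17 without L4 replicate 2, and -0.67 with values under 4 set to 4 (adjusted p = 0.164). Without L4 replicate 2 the same 7 genes were called in the same directions in the comparison of Day 15 with L4 larvae, and also the same 7 in that of Day 15 with Day 6.

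The changes of single genes were set against those of all genes tested. The falls of lys-8 and lys-1 ranked 174 and 181 among 11758 genes, that of lys-6 ranked 290, that of lys-5 ranked 685 and that of lys-7 ranked 2655. Changes of all genes tested between Day 6 and Day 15 lay between -9.33 and 6.62.

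**Figure D3:**
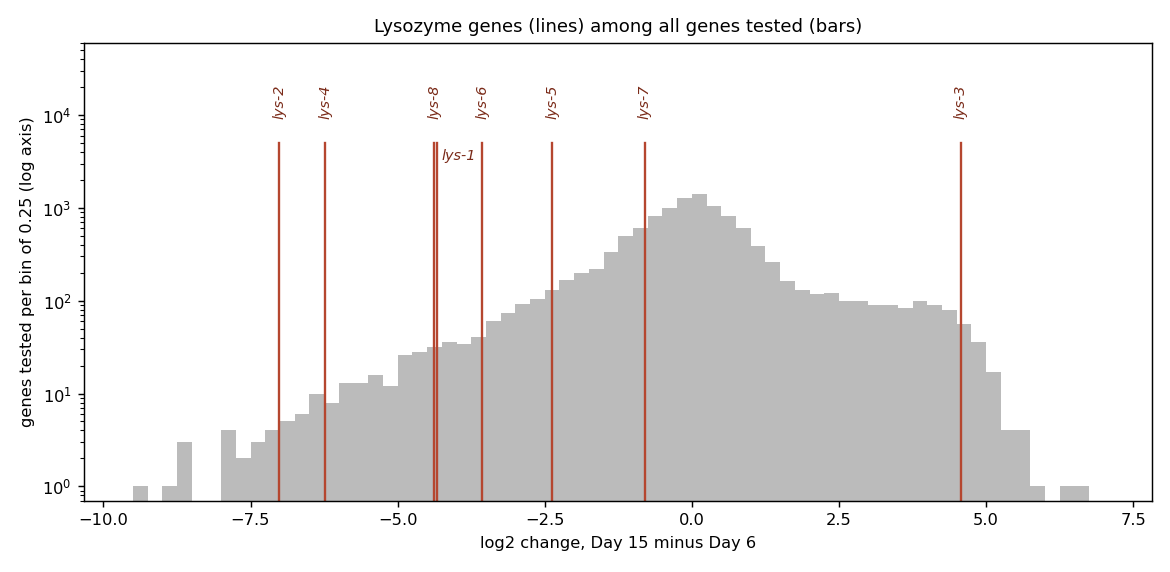
Distribution of the log2 change between Day 6 and Day 15 (horizontal axis, Day 15 minus Day 6) over 11758 genes tested, as the number of genes per bin on a log axis, with a line for each of the 8 lysozyme genes tested. The lines of lys-2 and lys-4 stand in the low tail, those of lys-8 and lys-1 almost coincide, and that of lys-3 stands alone on the high side.

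Among the lysozyme genes, 6 lie in a pair of runs of adjacent genes in the RefSeq annotation, a property that their selection did not use. The genes lys-1, lys-2 and lys-3 follow each other on chromosome V, and lys-4, lys-5 and lys-6 follow each other on chromosome IV. Members of a run did not move alike. On chromosome V, lys-3 rose while its direct neighbor lys-2 fell between Day 6 and Day 15, by 4.57 and 7.01. On chromosome IV all 3 genes fell, lys-5 by its own probe set near background. By its own probe set, lys-6 differed from both others in rising 2.83 between L4 and Day 6. The own probe sets of lys-2, lys-3, lys-4 and lys-6 have IDs that mark a match to several transcripts. Signal of relatives cannot be told apart in them. The neurotransmitter release gene ric-4, next but 1 to lys-1, fell by 1.67 (adjusted p = 0.00127). Beside lys-4, dsl-5 rose by 1.81 (adjusted p = 2.5e-05), though it averaged only 4.77 at Day 15 and 2.95 at Day 6. Beside lys-6, F58B3.4 had a change of 1.21 (adjusted p = 0.153). The direct neighbors Y22F5A.11 of lys-1 and B0024.3 of lys-3 have no probe set of their own in the annotation used. These neighbors were chosen after the values of the lysozyme genes were known.

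**Figure D4:**
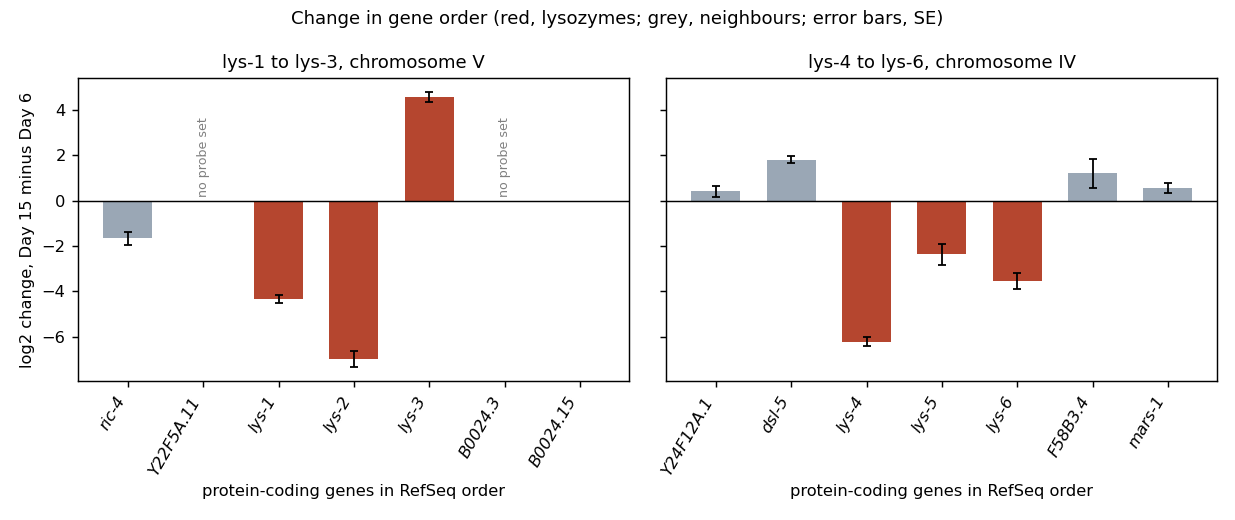
Log2 change between Day 6 and Day 15 (vertical axis, Day 15 minus Day 6, error bars standard error) of the lysozyme genes (red) and their nearest protein-coding neighbors (grey) in RefSeq gene order on chromosomes V and IV. Each lysozyme gene of the chromosome IV run falls, lys-3 rises next to lys-2, and B0024.15, whose change was -0.04, was not tested.

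The genes whose array values were most like those of a lysozyme gene were found by Pearson's r over the 9 arrays, which fall into 3 ages. Such an r mainly reflects the differences between ages, so it is given as a description. The gene lys-1 was closest to nspg-7.1 (r = 0.9991) and to the aspartyl protease gene asp-5 (r = 0.9983). The gene lys-2 was closest to C17H12.8 (r = 0.9970), which had means of 12.13 in L4 larvae, 12.41 at Day 6 and 4.55 at Day 15, and next to nspg-7.1 (r = 0.9969) and T21H3.1 (r = 0.9959). Both were also among the 3 closest to lys-1, T21H3.1 with r = 0.9978. The gene lys-4 was closest to F25B4.8 (r = 0.9985), K12H4.7 (r = 0.9983) and F28H7.3 (r = 0.9981). The gene lys-8 was closest to F01D5.3 (r = 0.9993), hrg-11.2 (r = 0.9992) and the kynureninase gene kynu-1 (r = 0.9989). The C-type lectin gene clec-41 (r = 0.9904) and the collagen gene col-101 (r = 0.9876) were among the 3 closest to lys-6, together with C35B1.4 (r = 0.9888), and all of them had their highest mean at Day 6. The closest to lys-7 was C08E8.4 (r = 0.9978), which had means of 8.99 in L4 larvae, 12.30 at Day 6 and 11.24 at Day 15, followed by gpa-4 (r = 0.9969) and srr-3 (r = 0.9966). The closest to lys-3 were W03A5.1 (r = 0.9917), the homeobox gene ceh-10 (r = 0.9910) and the insulin-like peptide gene ins-23 (r = 0.9909). Each of these had means under 4 in L4 larvae and at Day 6. The neuropeptide-like gene nlp-26 was closest to lys-5 (r = 0.9812), followed by T26C5.4 (r = 0.9704) and coq-1 (r = 0.9693).

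Between lysozyme genes, r was 0.991 to 0.997 for the 6 pairs of lys-1, lys-2, lys-4 and lys-8, and -0.992 to -0.990 for lys-3 with each of them. It was -0.304 to -0.191 for lys-7 with each of these 4 and 0.554 for lys-7 with lys-6. Leaving out lys-5, whose own probe set lay near background, the genes tested showed 4 patterns by their own probe sets. A called drop at Day 15 alone was seen for lys-1, lys-2, lys-4 and lys-8, and a called rise at Day 15 alone for lys-3. A peak at Day 6 with loss by Day 15 was seen for lys-6. A called rise by Day 6 with a Day 15 level still above L4 larvae was seen for lys-7. L4 replicate 2 was the highest L4 array for 5 of the 10 lysozyme probe sets, those of lys-2, lys-4, lys-5, lys-6 and the shared one. The same share over all probe sets was not counted, so this count is no trait of the lysozyme genes in particular.

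Invertebrate-type lysozymes, a separate enzyme family that also cleaves bacterial walls, were split in the same comparison. Of 6 genes, 4 were tested, and between Day 6 and Day 15 2 of them fell and 2 rose. Of all genes tested, 17% fell and 16.4% rose. The median of 0.51 lies between changes of -8.67 and 2.57 and so describes no single gene. The gene ilys-5 had log2 values of 4.41, 5.96 and 3.91 at Day 15 and 13.39, 13.53 and 13.36 at Day 6, a fall of 8.67. It has 3 probe sets, and values of the one with the highest mean are given. The ID of that probe set marks a possible match to other sequences, so their signal cannot be told apart there. The gene ilys-4 fell by 1.04 (adjusted p = 0.0119). The gene ilys-3 had log2 values of 12.43, 12.40 and 12.67 at Day 15 and 10.39, 10.65 and 10.27 at Day 6, a rise of 2.06 (standard error 0.34, adjusted p = 0.00105). The gene ilys-2 rose by 2.57 (adjusted p = 0.00132). Unlike lys-3, which overlapped between L4 and Day 6, ilys-3 and ilys-2 were called higher at Day 6 than in L4 larvae. Their L4 means were under 4, and with values under 4 set to 4 the changes were 6.44 for ilys-3 and 3.27 for ilys-2. Values of ilys-1 and ilys-6 stayed under 4 on every array.

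Transcripts of known regulators were counted in the same comparison. A list of 27 regulators of lysozyme expression or intestinal defense had 26 genes on the array, all of them tested. Between Day 6 and Day 15, 4 fell (15.4%, near the 17% of all genes tested), 0 rose and 22 were not called, with a median change of -0.54. Among 6 genes of the p38 pathway, limma called 0, with 1 at an unadjusted p under 0.05. The kinase gene pmk-1 had a change of -0.09 (adjusted p = 0.855), its activator sek-1 one of -0.52, and tir-1, vhp-1 and skn-1 ones of -0.37, -0.31 and -0.01. The transcription factor gene atf-7 changed by -0.85 (adjusted p = 0.00383), short of 2-fold. Among 7 genes of the DBL-1 pathway, limma called 0, with 4 at an unadjusted p under 0.05, while the methods' t-test after adjustment called 1, sma-6. The ligand gene dbl-1 had a change of -0.67 (adjusted p = 0.0291), the receptor genes sma-6 and daf-4 ones of -1.39 (adjusted p = 0.0775) and -0.34, and sma-2, sma-3, sma-4 and sma-9 ones of 0.04, -0.83, -0.78 and -0.68. Among 7 genes of the insulin pathway, limma called 0, with 1 at an unadjusted p under 0.05, and the methods' t-test called 0 there and in the p38 pathway. The transcription factor gene daf-16 had a change of 0.16 (adjusted p = 0.441), the receptor gene daf-2 one of 0.55 and age-1 one of 0.93 (adjusted p = 0.0096), while akt-1, akt-2, daf-18 and pqm-1 had changes of -0.12, 0.10, -0.75 and -0.26. Of the remaining 6 regulators, hlh-30 and bar-1 had changes of -0.56 and -0.73 and were not called. The GATA factor gene elt-2 fell by 1.60 (standard error 0.34, adjusted p = 0.00423). The related gene elt-7 fell by 1.67 (standard error 0.30, adjusted p = 0.00178). The bZIP factor gene zip-2 fell by 1.06 (adjusted p = 5.4e-04), and the receptor gene fshr-1 fell by 2.27 (standard error 0.64, adjusted p = 0.0187).

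Intestinal markers were also lower at Day 15, the intestine being the tissue best known to express lysozyme genes. Of 24 intestine markers, 23 were tested, and between Day 6 and Day 15 14 fell, 1 rose and 8 were not called, with a median of -1.23. By the same rule 17% of all genes tested fell and 16.4% rose. The marker that rose, ifp-1, averaged 2.17 at Day 6 and 3.54 at Day 15, both under 4. The genes elt-2 and elt-7 are counted here and among the regulators. The summed linear level of all 24 intestine markers was 27800 to 33200 at Day 15 and 49900 to 57000 at Day 6. The largest changes were -3.19 for the proton pump gene vha-6, -3.09 for the intermediate filament gene ifc-2 and -2.96 for the esterase gene ges-1. Among markers picked after their values were seen, the aquaporin gene aqp-4 averaged 2.98 at Day 15, under 4, and 5.92 at Day 6, and the metallothionein gene mtl-2 changed by -0.08 (adjusted p = 0.711). The falls of lys-1, lys-2, lys-4, lys-6 and lys-8 each exceeded that of every intestine marker tested. Some markers, however, had little room left to fall above the level taken here as background. Also picked after their values were seen, pept-1 and pho-1 averaged 4.13 and 4.46 at Day 6, after changes of -6.67 and -6.73 between L4 and Day 6. The sizes of the falls cannot be compared for such markers, and the median of the list partly reflects background. The part of the lower intestine signal in the falls of the lysozyme genes was not tested. Between L4 and Day 6, 12 of the 23 intestine markers were called lower and 2 higher, with a median of -1.09. Of all genes tested, 24.6% fell and 29.3% rose in that comparison.

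Markers of other tissues were counted likewise between Day 6 and Day 15, where 17% of all genes tested fell and 16.4% rose. Body wall muscle markers fell in 6 of 10 cases (median -1.26), with the largest changes in tnt-2 (-4.96), unc-27 (-3.13) and unc-54 (-2.78). Epidermis markers fell in 2 of 8 (median -0.14), the collagen genes col-19 (-4.40) and sqt-3 (-1.71). Among epidermis markers picked after their values were seen, rol-6, dpy-7, bli-1 and dpy-5 averaged 3.04, 2.66, 2.52 and 3.71 at Day 6. All of these are under 4, so that median partly reflects background. Neuron markers fell in 3 of 9 (median -0.94), namely snt-1 (-1.68), ric-4 (-1.67) and rab-3 (-1.04). By limma, pharynx muscle markers were called in 0 of 6 (median 0.13) and germline and oocyte markers in 0 of 10 (median -0.23), with 0 and 1 at an unadjusted p under 0.05 and 0 and 1 called by the methods' t-test. Sperm markers rose in 4 of 4 (median 3.36), with the largest rises in gsp-3 (3.93) and gsp-4 (3.77). The fall of lys-2 and that of lys-4 exceeded every change of a marker in these lists.

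**Figure D5:**
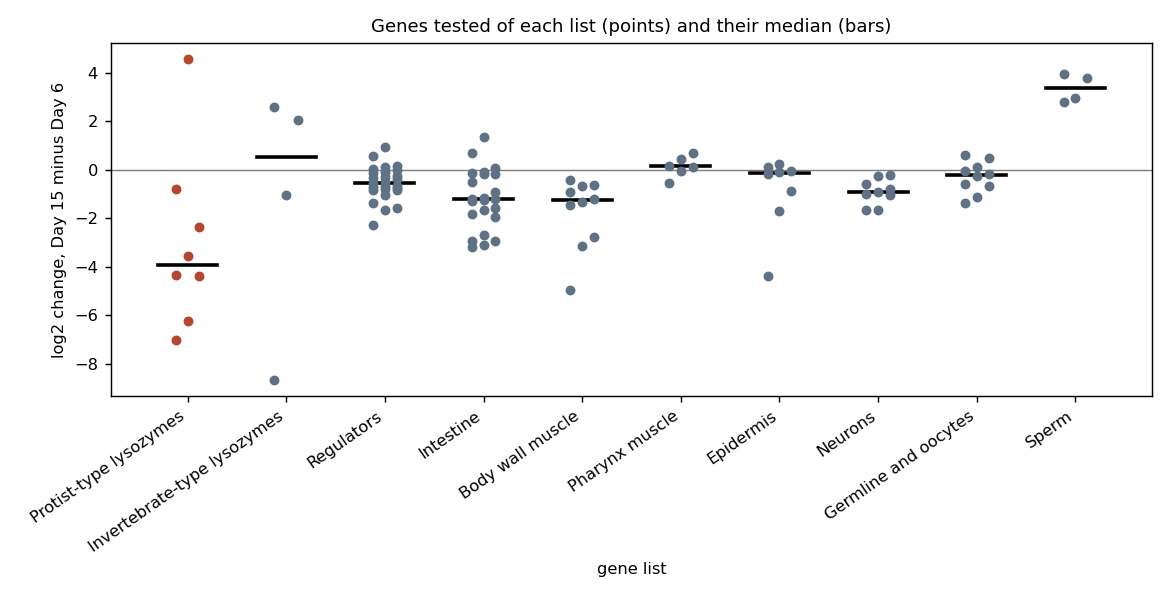
Log2 change between Day 6 and Day 15 (vertical axis, Day 15 minus Day 6) of every tested gene of each list (horizontal axis), with a bar for the median. The protist-type lysozymes (red) have a median of -3.95, against -1.23 for intestine markers and 0.51 for invertebrate-type lysozymes, and lys-3 is the red point above 0. The median of the intestine markers partly reflects background.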

How the data were processed

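Per the labels and the methods, 100 ng of total RNA was amplified for each GeneChip *C. elegans* genome array. The authors deposited GCRMA-normalized log2 expression values per probe set (the GCRMA version is not given in the sources used here). MAS5 present calls and centering by gene were not used here. Of 22625 probe sets, 77 are controls, 20766 stand for 1 gene, 887 for several and 895 for none, and gene IDs of 20701 matched RefSeq. The probe set with the highest mean stood for each of 17118 genes. The ages were compared with limma 3.58.1 in R 4.3.3, in 1 fit of 9 arrays with 6 residual degrees of freedom and Benjamini-Hochberg adjustment over all genes tested. The fit was tested on simulated data. Probe sets were fitted likewise. Tables and figures used Python 3.11.15. The members and lists were chosen with earlier results of these data known. The rule for named genes took all members, all ilys genes, all regulators, the 3 called markers of a tissue with the largest change and the 3 genes most like each member, and genes outside it are said to be so. Of the members' own probe sets, 5 have IDs that mark a match to several transcripts (lys-2, lys-3, lys-4, lys-6 and lys-7), so signal of relatives cannot be told apart there. Alternatives varied the ages fitted, filter, probe set, scaling, variance model, threshold, floor, test, blocking and the replicates kept. The number of arrays limits the precision.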

Additional observations from a re-analysis of the deposited data

How the results depend on the processing

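Between Day 6 and Day 15, 7 lysozyme genes were called, 2 between L4 and Day 6, and 7 between L4 and Day 15, and these counts stayed within 1.5 times under every alternative run except the choice of probe sets. With only probe sets whose IDs carry no mark of several matches, 3 members were left to test (lys-1, lys-5 and lys-8), and 3, 0 and 3 were called in these comparisons. With the replicate number as a block the counts were again 7, 2 and 7, and the block changed no call of a member. Per the labels, larvae and aged adults of a run came from a common synchronized population, but the labels do not say that replicate numbers mark the run. Deviations from the age means correlated at -0.056 to 0.185 between arrays of the same number and at -0.215 to 0.153 between others. The numbers were therefore not taken as pairs, and these correlations cannot show that arrays of different ages are independent. With values under 4 set to 4, lys-5 was no longer called (-0.48 for Day 15 minus Day 6, -0.67 for Day 15 minus L4), and the changes of lys-10 became 0.02 for Day 6 minus L4 and 0.00 for Day 15 minus L4. Without L4 replicate 3, lys-6 was called for Day 15 minus L4 (-1.05). With no filter on low values, 3 genes were called for Day 6 minus L4, lys-10 among them. With no minimum change, lys-7 (-0.80, Day 15 minus Day 6) and lys-4 (-0.65, Day 6 minus L4) were called. Some uncalled changes for Day 6 minus L4 turned their sign. With array medians set equal, lys-1 was at 0.05 and lys-3 at 0.14, and with quantile normalization lys-3 was at 0.14. Leaving out 1 array at a time gave -0.07 to 0.31 for lys-2, -0.21 to 0.06 for lys-3 and -0.63 to 0.20 for lys-5. Equal medians moved the median change of all genes tested to 0.37 for Day 6 minus L4 (0.17 as deposited) and to 0.41 for Day 15 minus L4 (0.23 as deposited). The methods' t-test with the 2-fold minimum called the same numbers of members, 7, 2 and 7, before and after Benjamini-Hochberg adjustment.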
